A study of Homo sapiens with 12 samples.

Results

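De novo lipogenesis is the synthesis of fatty acids from acetyl-CoA and their first steps into glycerolipids, and 10 of its genes were followed here in H69 cells, an immortalised line of human cholangiocytes, the epithelial cells of bile ducts. The genes were chosen by name for their role: the transcription factors SREBF1 and MLXIPL, the enzymes ACLY, ACSS2, ACACA, ACACB, FASN and ME1, and the glycerolipid enzymes GPAM and LPIN1. Each of the 10 matched 1 of the 62703 gene rows of the count table, and all 10 passed the filter on low counts. The 12 RNA sequencing libraries formed 4 groups of 3: TGFβ + Aramchol, TGFβ, Aramchol and vehicle. TGFβ was given at 10 ng/mL and Aramchol at 30 µM overnight, in medium without serum and after 6 h without serum, in every group. All 12 libraries came from this 1 line, whose growth medium held insulin, hydrocortisone and epidermal growth factor, and the labels do not say whether the libraries of a group were separate cultures. The p-values therefore measure no more than library-to-library spread, part or all of which may be technical.

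In the cytosol ACLY makes acetyl-CoA from citrate and ACSS2 makes it from acetate, the carboxylases ACACA and ACACB turn it into malonyl-CoA, and fatty acid synthase (FASN) builds palmitate from both with NADPH, part of which comes from malic enzyme (ME1). GPAM then attaches the first fatty acid to glycerol-3-phosphate and LPIN1 removes the phosphate from phosphatidic acid to give diacylglycerol. Transcription of most of these genes is driven by SREBP1c, a product of SREBF1 that responds to insulin and sterols, and by ChREBP, the product of MLXIPL, which responds to glucose metabolites; both are best known from liver and fat. TGFβ is a cytokine of fibrosis, and Aramchol is a bile acid joined to a long saturated fatty acid known as an inhibitor of stearoyl-CoA desaturase, which acts after FASN on the way to oleate.

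Library totals ran between 52279922 and 70339925 counts, and mitochondrial genes took 7.81 to 9.45% of them. Cholangiocyte markers were read in CPM (counts per 1000000 counts of the library, scaled by the trimmed mean of M values, TMM). KRT7 reached between 275 and 999.9 CPM and SLC4A2 between 268 and 441 CPM, while CFTR reached at most 0.0494 CPM. Of 8 hepatocyte markers, ALB, APOA1 and CYP3A4 reached at most 0.154 CPM and TTR was at 0, while the other 4 were present, with highest values between 9.02 CPM for TF and 106 CPM for SERPINA1. Of the fat cell markers, 5 of 6 fat cell markers stayed under 1 CPM.

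Promoters of the members the results turn on are printed here from RefSeq (GRCh38.p14), as the 250 bases before a start site, 5′ to 3′ on the strand of the gene. MLXIPL had the largest change, SREBF1 and ACLY had the most alike patterns, and ACSS2 and GPAM were called in opposite directions. Capitals mark CACNCCA, a core of the sterol element that SREBP proteins bind, and CCAAT, the core of the Y-box that NF-Y binds, on either strand.
MLXIPL (chr7:73624523-73624772, minus strand): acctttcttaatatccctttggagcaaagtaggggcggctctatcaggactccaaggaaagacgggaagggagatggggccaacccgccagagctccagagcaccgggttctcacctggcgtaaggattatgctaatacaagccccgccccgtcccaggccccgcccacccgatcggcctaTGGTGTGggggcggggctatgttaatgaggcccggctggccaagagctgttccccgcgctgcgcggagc
SREBF1 (chr17:17836987-17837236, minus strand): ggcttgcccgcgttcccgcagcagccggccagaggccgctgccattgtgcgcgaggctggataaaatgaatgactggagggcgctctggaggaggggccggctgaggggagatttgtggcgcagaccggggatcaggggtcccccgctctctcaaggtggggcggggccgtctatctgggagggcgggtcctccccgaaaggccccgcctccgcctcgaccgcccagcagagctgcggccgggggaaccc
ACLY (chr17:41918952-41919201, minus strand): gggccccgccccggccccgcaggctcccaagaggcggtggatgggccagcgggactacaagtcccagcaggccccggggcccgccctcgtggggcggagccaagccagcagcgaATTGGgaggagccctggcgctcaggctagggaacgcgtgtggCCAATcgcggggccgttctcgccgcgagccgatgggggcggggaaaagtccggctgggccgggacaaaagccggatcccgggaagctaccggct
ACSS2 (chr20:34874739-34874988, plus strand): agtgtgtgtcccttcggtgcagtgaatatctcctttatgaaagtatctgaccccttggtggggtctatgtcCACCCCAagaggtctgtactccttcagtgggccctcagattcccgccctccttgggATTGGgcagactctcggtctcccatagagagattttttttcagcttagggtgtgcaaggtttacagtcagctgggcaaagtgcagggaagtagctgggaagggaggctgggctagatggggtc
GPAM (chr10:112183766-112184015, minus strand): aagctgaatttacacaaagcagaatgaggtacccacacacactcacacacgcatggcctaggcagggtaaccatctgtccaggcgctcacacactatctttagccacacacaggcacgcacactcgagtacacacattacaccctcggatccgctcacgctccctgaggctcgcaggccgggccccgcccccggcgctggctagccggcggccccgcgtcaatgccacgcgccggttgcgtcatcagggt

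The match of CACNCCA began 69 bases before the start in MLXIPL, 179 bases before it in ACSS2 and, outside the printed bases, 2 bases after it in ACLY, and ACLY held CCAAT matches 136 and 94 bases before the start. ACSS2 and ACLY each had another window, not printed, without CACNCCA. That of ACSS2 (start at 34876612) held no CCAAT either. That of ACLY (start at 41919022) held CCAAT matches 65 and 23 bases before its start. No capitals fell in the windows printed for SREBF1 and GPAM, and a CCAAT match of GPAM lay 17 bases after the start. The SREBF1 window was the only one for this gene, with its start at 17836986 beside the outer end of the gene at 17837002. Which transcript starts there was not determined, so the window cannot be read as that of SREBP1c. Counts per gene do not separate transcripts either, so they do not describe SREBP1c alone. The RefSeq table held 16 windows for 9 of the 10 members, all but FASN, each with 250 bases before and 50 after a start. CACNCCA occurred in 6 of the 16 windows, against 17.6% of all 35116 promoters of the table, and CCAAT in 7 of 16, against 34.6%. The E-box CACGTG occurred in none of the 16, against 7.26%, its looser form CANNTG in 9, against 68.7%, CAGAC, a short SMAD element, in 5, against 45.3%, and the GC box GGGCGG in 13, against 45.0%. Windows of 1 gene can overlap, CACGTG is also a CANNTG, and a match of letters is a description, not a bound site.

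Per kilobase of exon, a scale that allows levels of different genes to be compared, ACLY was the most abundant member, at a mean over the 4 groups of 101 CPM per kb, followed by FASN at 84.0 CPM per kb. ME1 followed at 26.4, ACACA at 16.4, ACSS2 at 14.9, MLXIPL at 13.6, SREBF1 at 9.92, LPIN1 at 5.37 and GPAM at 4.30 CPM per kb, and ACACB, the carboxylase isoform of the mitochondrial surface, came last at 0.785 CPM per kb. The group means of ACLY (94.0 to 108 CPM per kb) did not overlap those of FASN (69.0 to 90.8), nor did those of ME1 (20.3 to 34.0) overlap those of ACACA (14.7 to 18.0). ACACA and ACSS2 overlapped, as did LPIN1 and GPAM, and MLXIPL overlapped every member listed from ME1 to GPAM, so their order depends on the group. MLXIPL spanned 2.36 to 26.0 CPM per kb between group means: it stood below GPAM in libraries that had received TGFβ and above ACACA in those that had not. Across the 12 libraries the highest level was 14.2 times the lowest for MLXIPL, 2.75 times for GPAM, 2.60 times for LPIN1 and between 1.36 and 1.97 times for the other 7.

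**Figure D1:**
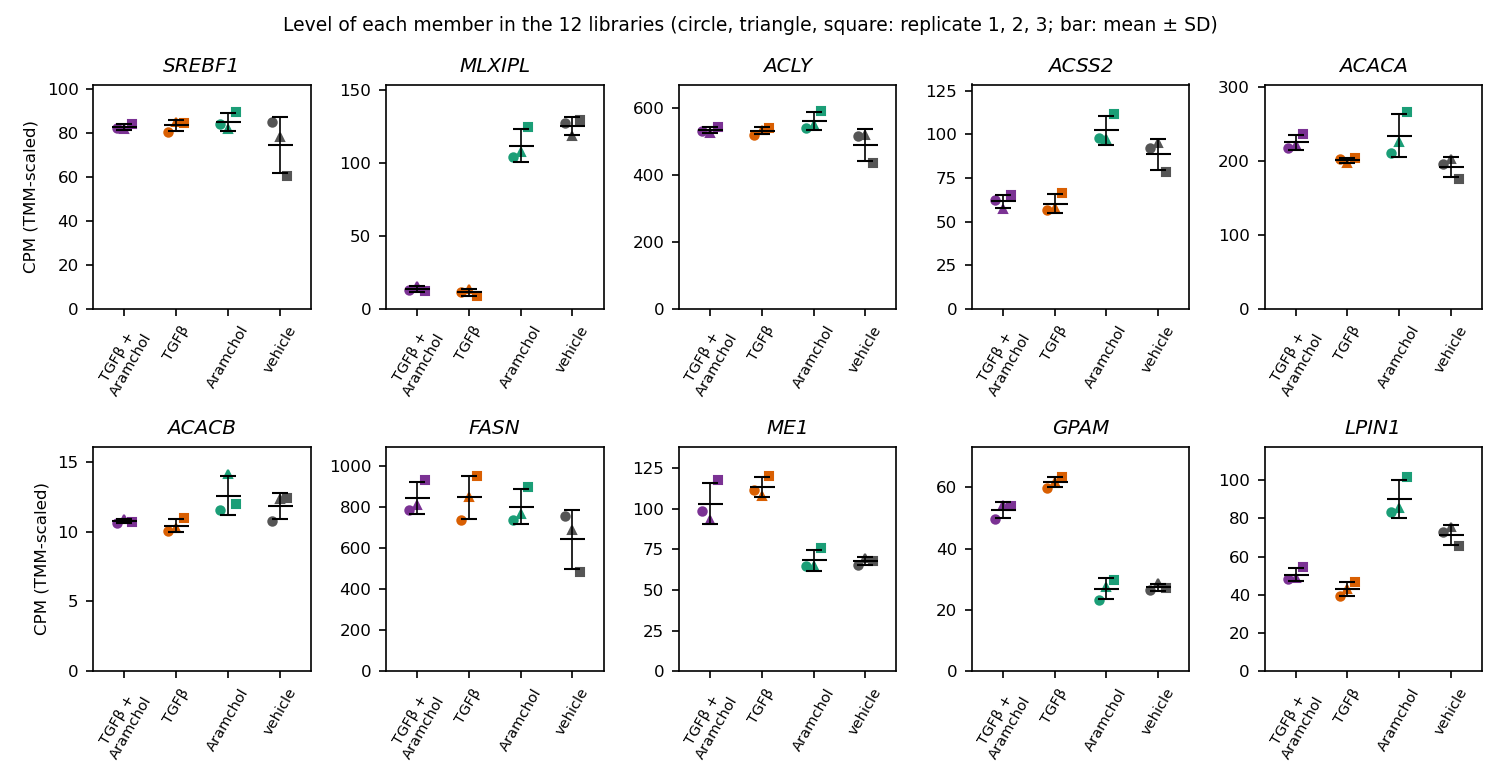
TMM-scaled CPM (vertical axes, linear and starting at 0) of each of the 10 genes in the 4 groups, with 1 point per library (circle, triangle and square for replicates 1, 2 and 3) and bars for the mean ± SD (n = 3). MLXIPL sits between 9.12 and 16.0 CPM in the 6 libraries with TGFβ and between 104 and 129.9 CPM in the 6 without, while the square of the vehicle group is the lowest point for SREBF1, ACLY, ACACA and FASN.

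TGFβ moved members in both directions against vehicle. ME1 and GPAM were higher, MLXIPL, LPIN1 and ACSS2 were lower, FASN was higher with a call that depended on single libraries, and SREBF1, ACLY, ACACA and ACACB did not pass the test. That is 6 of 10 members called (edgeR quasi-likelihood test, Benjamini-Hochberg adjusted over 21567 genes, adjusted p under 0.05), 3 higher and 3 lower, where 37% of all tested genes were called, 18.9% higher and 18.1% lower. Groups did not overlap for 6 of 10 members, as for 46.6% of all tested genes. The median log2 fold change was 0.09 over the members and -0.03 over all tested genes. In bulk RNA, fewer cells of a type and less RNA per cell cannot be told apart. Summed fibroblast markers moved with TGFβ too, at 345 to 429 CPM in TGFβ + Aramchol and 463 to 577 CPM in TGFβ libraries, against 165 to 168 CPM in Aramchol and 145 to 193 CPM in vehicle libraries. All 6 of those markers were detected and 5 of 6 stood above 1 CPM in every library; PDGFRB, COL1A2 and THY1 made up most of the sum, whereas PDGFRA averaged 6.64 CPM in TGFβ and 9.96 CPM in vehicle libraries and DCN 7.74 and 7.595 CPM in the same groups. Markers of other cells also moved with TGFβ. The 8 hepatocyte markers summed to 107 to 115 CPM in TGFβ and 77.5 to 98.3 CPM in vehicle libraries, but did not move together. SERPINA1, most of the sum, averaged 101 CPM in TGFβ and 73.6 CPM in vehicle libraries, and HNF4A 6.81 and 0.330 CPM. APOB averaged 1.68 CPM in TGFβ and 8.52 CPM in vehicle libraries, and TF 1.43 and 7.87 CPM. The 5 leukocyte markers, most of it CD14 with PTPRC near 0 and CD3E at 0, summed to 5.30 to 6.01 CPM in TGFβ and 28.03 to 34.5 CPM in vehicle libraries. Of the cholangiocyte markers, EPCAM averaged 3.37 CPM in TGFβ and 7.76 CPM in vehicle libraries and AQP1 8.09 CPM in TGFβ and 0.385 CPM in vehicle libraries. The part of these markers in the results was not tested.

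Of the regulators, MLXIPL (ENSG00000009950, GRCh38 chromosome 7, 73593194 to 73624543, minus strand) stood at 11.4, 13.6 and 9.12 CPM in TGFβ libraries, against 128, 119 and 129.9 CPM in vehicle libraries. Every TGFβ library lay far under every vehicle library, an 11.01-fold lower level (log2 fold change -3.46, SE 0.13, edgeR adjusted p = 1.29e-11). SREBF1 (ENSG00000072310, chromosome 17, 17810399 to 17837002, minus strand) stood at 80.8, 85.2 and 84.8 CPM in TGFβ libraries, against 85.4, 78.1 and 60.6 CPM in vehicle libraries. These groups overlapped: vehicle replicate 1 lay above all TGFβ libraries, vehicle replicate 2 just under them and vehicle replicate 3 far under them (0.16, SE 0.089, 95% interval -0.03 to 0.35, edgeR adjusted p = 0.175). Single vehicle libraries moved SREBF1 either way: without vehicle replicate 3 the difference was 0.03 (edgeR adjusted p = 0.715), and without vehicle replicate 1 it was 0.27 and passed the test (adjusted p = 0.0215). It also passed with no filter on low counts (0.18, adjusted p = 0.0389), and over all alternatives its adjusted p ran between 0.0215 and 0.812. SREBF1 shares 556 exonic bases with RAI1 on the other strand, and no source used here states whether counting used strand.

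The acetyl-CoA sources differed. ACSS2 (ENSG00000131069, chromosome 20, 34872146 to 34927962, plus strand) stood at 56.8, 57.7 and 66.5 CPM in TGFβ libraries, against 92.4, 94.9 and 78.5 CPM in vehicle libraries. The groups did not overlap, and ACSS2 fell by 0.55 on the log2 scale (SE 0.084, edgeR adjusted p = 7.15e-05). ACLY (ENSG00000131473, chromosome 17, 41866917 to 41930542, minus strand) stood at 519.8, 535 and 540.3 CPM in TGFβ libraries, against 515, 518 and 435 CPM in vehicle libraries. Although these groups just failed to touch, ACLY did not pass the test (0.12, SE 0.063, 95% interval -0.01 to 0.25, edgeR adjusted p = 0.158).

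Of the fatty acid synthesis steps, FASN (ENSG00000169710, chromosome 17, 82078338 to 82098294, minus strand) stood at 738, 849 and 951 CPM in TGFβ libraries, against 758, 688 and 482 CPM in vehicle libraries. Vehicle replicate 1 lay above TGFβ replicate 1, so the groups overlapped, and the call (0.40, SE 0.14, edgeR adjusted p = 0.0307) was lost without vehicle replicate 3 (0.23, edgeR adjusted p = 0.0975), without TGFβ replicate 3 (0.31, adjusted p = 0.133), without TGFβ replicate 2 (0.40, adjusted p = 0.0715) and with libraries numbered 1 and 2 alone (0.13, adjusted p = 0.0759). ACACA (ENSG00000278540, chromosome 17, 37084992 to 37406836, minus strand), the cytosolic carboxylase, stood at 203, 198 and 204 CPM in TGFβ libraries, against 196, 204 and 176 CPM in vehicle libraries, with a difference of 0.07 (SE 0.076, 95% interval -0.09 to 0.23, edgeR adjusted p = 0.517). ACACB (ENSG00000076555, chromosome 12, 109116587 to 109268226, plus strand) had few counts, 599 to 1035 a library, and stood at 10.1, 10.3 and 10.99 CPM in TGFβ libraries, against 10.7, 12.3 and 12.4 CPM in vehicle libraries. Both carboxylases overlapped between the groups, and the ACACB difference of -0.18 (SE 0.091, 95% interval -0.38 to 0.01) gave an edgeR adjusted p of 0.139. ME1 (ENSG00000065833, chromosome 6, 83210402 to 83431051, minus strand) stood at 112, 108 and 120.5 CPM in TGFβ libraries, against 65.4, 69.9 and 67.9 CPM in vehicle libraries. ME1 was thus 1.67-fold higher without overlap (0.74, SE 0.083, edgeR adjusted p = 3.18e-06).

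The glycerolipid enzymes moved in opposite directions. GPAM (ENSG00000119927, chromosome 10, 112149865 to 112215377, minus strand) stood at 59.97, 61.9 and 63.4 CPM in TGFβ libraries, against 26.5, 28.7 and 27.1 CPM in vehicle libraries, and the spread within either group was small beside the gap. GPAM was 2.25-fold higher (1.17, SE 0.078, edgeR adjusted p = 8.37e-09). LPIN1 (ENSG00000134324, chromosome 2, 11677595 to 11827409, plus strand) stood at 39.1, 43.3 and 46.5 CPM in TGFβ libraries, against 72.9, 75.4 and 65.5 CPM in vehicle libraries. All TGFβ libraries lay under all vehicle libraries, a 1.66-fold lower level (-0.73, SE 0.086, edgeR adjusted p = 5.42e-06).

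**Figure D2:**
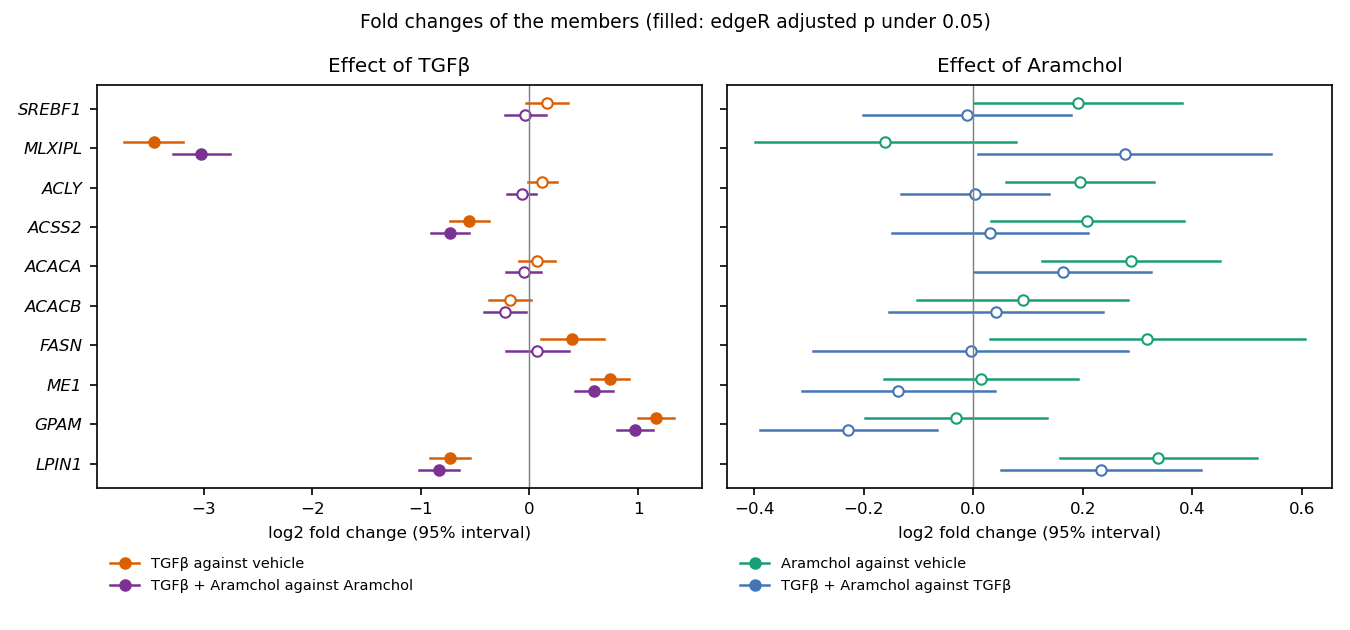
Log2 fold changes (horizontal axes, with 95% intervals from the edgeR fit) of the 10 genes for TGFβ on the left, against vehicle and within Aramchol, and for Aramchol on the right, against vehicle and within TGFβ; filled points passed an adjusted p of 0.05. On the left MLXIPL stands at -3.46 and -3.02 and GPAM at 1.17 and 0.97, and on the right, on a narrower axis, no point is filled and all lie between -0.23 and 0.34.

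TGFβ was also given in the presence of Aramchol, and this comparison, TGFβ + Aramchol against Aramchol, shares no library with the one above. MLXIPL, ACSS2 and LPIN1 were lower and ME1 and GPAM were higher, which makes 5 of 10 members called, where 30.2% of all tested genes were called (median log2 fold change -0.06 over the members and -0.01 over all genes). Groups did not overlap for 6 of 10 members and for 44.6% of all tested genes. MLXIPL stood at 13.3, 16.0 and 12.1 CPM in TGFβ + Aramchol libraries, against 104, 107 and 125 CPM in Aramchol libraries, an 8.13-fold lower level (-3.02, SE 0.12, edgeR adjusted p = 5.64e-11). GPAM stood at 49.8, 54.3 and 54.0 CPM in TGFβ + Aramchol libraries, against 23.1, 27.6 and 29.8 CPM in Aramchol libraries, 1.96-fold higher (0.97, SE 0.078, edgeR adjusted p = 9.52e-08). ME1 stood at 98.8, 93.0 and 118 CPM in TGFβ + Aramchol libraries, against 64.5, 64.7 and 75.9 CPM in Aramchol libraries, 1.51-fold higher (0.59, SE 0.083, edgeR adjusted p = 4.45e-05). None of these 3 genes overlapped between the groups.

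ACSS2 stood at 62.3, 57.3 and 65.0 CPM in TGFβ + Aramchol libraries, against 98.0, 97.1 and 112 CPM in Aramchol libraries (-0.73, SE 0.084, edgeR adjusted p = 5.32e-06). LPIN1 stood at 48.2, 48.9 and 54.5 CPM in TGFβ + Aramchol libraries, against 83.3, 85.2 and 102 CPM in Aramchol libraries (-0.83, SE 0.085, edgeR adjusted p = 1.55e-06). Both were apart in every library. ACACB stood at 10.6, 10.9 and 10.7 CPM in TGFβ + Aramchol libraries, against 11.6, 14.2 and 12.02 CPM in Aramchol libraries, also without overlap, but did not pass the test (-0.23, SE 0.091, edgeR adjusted p = 0.0702). It passed under upper quartile scaling (edgeR adjusted p = 0.0427) and with libraries numbered 1 and 2 alone (0.0432). It also passed with terms for the libraries numbered 3 (edgeR adjusted p = 0.0422) or for replicate numbers (0.0332). FASN averaged 843 ± 78.4 CPM in TGFβ + Aramchol and 801 ± 85.5 CPM in Aramchol libraries (SD, n = 3 each; 0.07, 95% interval -0.21 to 0.36, edgeR adjusted p = 0.733), and SREBF1, ACLY and ACACA had intervals that also included 0, with sizes of at most 0.07.

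Aramchol alone against vehicle gave differences of at most 0.34 on the log2 scale. None of the 10 members passed the edgeR test, where 0.357% of all tested genes did, 0.236% higher and 0.121% lower; 6 members had an unadjusted p under 0.05, as had 11.7% of all tested genes, and DESeq2 called 2, LPIN1 and ACACA, with 1.85% of all tested genes. The edgeR fit called the same 2 with a term for the libraries numbered 3 (adjusted p = 0.0169 for LPIN1 and 0.0318 for ACACA), among 538 of 21567 genes. A term for replicate numbers also called both (edgeR adjusted p = 0.0248 for LPIN1 and 0.0462 for ACACA), among 464 of 21567 genes. With no filter on low counts edgeR called these and FASN, among 531 of 42087 genes. FASN then had an edgeR adjusted p of 1.13e-05, against 0.371 with the filter, at the same difference of 0.32 and with overlapping groups. Why its p-value fell was not tested. The median log2 fold change was 0.19 over the members and -0.01 over all tested genes. LPIN1 stood at 83.3, 85.2 and 102 CPM in Aramchol libraries, against 72.9, 75.4 and 65.5 CPM in vehicle libraries, without overlap (0.34, SE 0.085, 95% interval 0.16 to 0.52, edgeR adjusted p = 0.124, DESeq2 adjusted p = 0.0187). ACACA stood at 211, 226 and 267 CPM in Aramchol libraries, against 196, 204 and 176 CPM in vehicle libraries, also without overlap (0.29, SE 0.076, 95% interval 0.13 to 0.45, edgeR adjusted p = 0.143, DESeq2 adjusted p = 0.0307).

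FASN stood at 737, 767 and 898 CPM in Aramchol libraries, against 758, 688 and 482 CPM in vehicle libraries, with vehicle replicate 1 above Aramchol replicate 1 (0.32, SE 0.14, edgeR adjusted p = 0.371). ACSS2 at 98.0, 97.1 and 112 CPM in Aramchol libraries lay above 92.4, 94.9 and 78.5 CPM in vehicle libraries (0.21, SE 0.083, edgeR adjusted p = 0.347), and ACLY at 541, 549 and 590.2 CPM in Aramchol libraries lay above 515, 518 and 435 CPM in vehicle libraries (0.20, SE 0.063, edgeR adjusted p = 0.244). With LPIN1 and ACACA these are 4 of 10 members without overlap, where 16% of all tested genes had none. SREBF1 averaged 85.3 ± 4.13 CPM in Aramchol and 74.7 ± 12.7 CPM in vehicle libraries (0.19, 95% interval 0.0008 to 0.38, edgeR adjusted p = 0.423). ME1 (0.01, interval -0.16 to 0.19), GPAM (-0.03, -0.20 to 0.14), ACACB (0.09, -0.10 to 0.28) and MLXIPL (-0.16, -0.40 to 0.08) had intervals that included 0.

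Vehicle replicate 3 moved with these differences. It was the lowest of all 12 libraries for SREBF1, FASN, ACACA and ACLY, by 25.8%, 33.3%, 11.7% and 15.8% under the mean of the other 2 vehicle libraries, and the lowest of its group for ACSS2 and LPIN1 as well. Without it the Aramchol difference was 0.15 for FASN, 0.06 for SREBF1, 0.12 for ACLY, 0.13 for ACSS2, 0.23 for ACACA (edgeR adjusted p = 0.115) and 0.28 for LPIN1 (edgeR adjusted p = 0.0936). In the other groups replicate 3 exceeded both its fellows for 7 of 10 members with TGFβ + Aramchol, 8 with TGFβ and 9 with Aramchol.

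**Figure D3:**
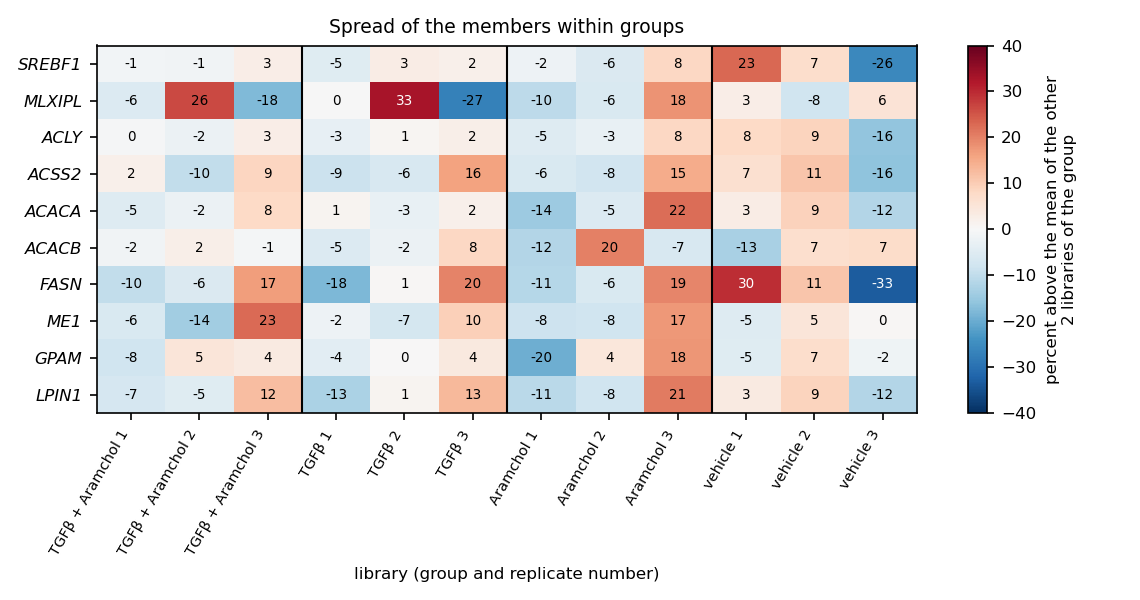
Percent by which each library (columns, by group and replicate number) lay above or below the mean of the other 2 libraries of its group, for each of the 10 genes (rows); red is above and blue below. The vehicle 3 column reads -33 for FASN and -26 for SREBF1, and the Aramchol 3 column is red for 9 of 10 genes.

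Aramchol on top of TGFβ, TGFβ + Aramchol against TGFβ, shares no library with Aramchol against vehicle. No member passed the edgeR test here either, where 2.25% of all tested genes did, 0.89% higher and 1.36% lower, and DESeq2 called none of the members and 4.83% of all tested genes; 4 members had an unadjusted p under 0.05, as had 17.2% of all tested genes. The median log2 fold change was 0.02 over the members and -0.0007 over all tested genes. GPAM stood at 49.8, 54.3 and 54.0 CPM in TGFβ + Aramchol libraries, against 59.97, 61.9 and 63.4 CPM in TGFβ libraries, without overlap (-0.23, SE 0.076, 95% interval -0.39 to -0.07, edgeR adjusted p = 0.134). Its call changed with the fit. GPAM passed with the 2 groups alone (edgeR adjusted p = 0.0298) and with terms for the libraries numbered 3 (0.0410) or for replicate numbers (0.0262). In that order, these fits called 960 of 20149, 1683 of 21567 and 1519 of 21567 genes. LPIN1 stood at 48.2, 48.9 and 54.5 CPM in TGFβ + Aramchol libraries, against 39.1, 43.3 and 46.5 CPM in TGFβ libraries, again without overlap (0.23, SE 0.086, 95% interval 0.05 to 0.42, edgeR adjusted p = 0.175).

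ACACA at 218, 222 and 237 CPM in TGFβ + Aramchol libraries lay above 203, 198 and 204 CPM in TGFβ libraries (0.16, SE 0.076, edgeR adjusted p = 0.288). That makes 3 of 10 members without overlap, where 23.6% of all tested genes had none. MLXIPL stood at 13.3, 16.0 and 12.1 CPM in TGFβ + Aramchol libraries, against 11.4, 13.6 and 9.12 CPM in TGFβ libraries, so the groups overlapped (0.28, SE 0.13, edgeR adjusted p = 0.274). The other 6 members lay within -0.14 and 0.04. FASN averaged 843 ± 78.4 CPM in TGFβ + Aramchol and 846 ± 107 CPM in TGFβ libraries (SD, n = 3 each; -0.005, 95% interval -0.29 to 0.28), and the interval of ACLY (-0.13 to 0.14) was the narrowest.

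Whether the effect of TGFβ differed with Aramchol was tested as an interaction, which no member passed, where 0.0139% of all tested genes did. MLXIPL had an interaction of 0.44 (SE 0.17, 95% interval 0.08 to 0.80, edgeR adjusted p = 0.912) and ACLY one of -0.19 (SE 0.089, 95% interval -0.38 to -0.002, edgeR adjusted p = 0.948). These were the 2 members with an unadjusted p under 0.05, which 5.27% of all tested genes had, and DESeq2 called no member and 0.121% of all tested genes. FASN had -0.32 (SE 0.19, 95% interval -0.73 to 0.08), and the other 7 lay between -0.20 and -0.05. With libraries numbered 1 and 2 alone MLXIPL passed (0.45, edgeR adjusted p = 0.0482), among 191 of 21762 genes. Over all alternatives the interaction ran between 0.30 and 0.59 for MLXIPL and between -0.235 and -0.077 for ACLY.

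The genes around the members were described through 7 lists of the same pathway. Genes listed as ChREBP partners or targets were called in both directions with TGFβ: 2 of 7 tested genes were higher and 3 lower (9 in the list, median -0.03). MLXIP, the paralog of MLXIPL known as MondoA, stood at 263, 268 and 250.1 CPM in TGFβ libraries, against 109, 106 and 99.4 CPM in vehicle libraries (1.31, SE 0.055, edgeR adjusted p = 4.59e-11). Per kilobase MLXIP averaged 18.8 CPM in TGFβ and 7.56 CPM in vehicle libraries, while MLXIPL averaged 2.36 CPM in TGFβ and 26.0 CPM in vehicle libraries, so the order of the paralogs differed between the groups. TXNIP, an inhibitor of glucose uptake and a target of both factors (-1.16, edgeR adjusted p = 1.18e-08), and KHK, which phosphorylates fructose (-1.40, edgeR adjusted p = 1.86e-08), were lower. Partners and targets did not divide by direction. The partner MLX averaged 56.4 CPM in TGFβ and 54.1 CPM in vehicle libraries. SLC2A5, a listed target with few counts, averaged 0.372 CPM in TGFβ and 0.135 CPM in vehicle libraries. With Aramchol present TGFβ gave the same calls for MLXIP (1.04, edgeR adjusted p = 7.85e-10), KHK (-0.96, adjusted p = 1.55e-06) and TXNIP (-0.69, adjusted p = 5.52e-06).

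SREBP processing genes and partners had 2 of 13 higher and 3 lower with TGFβ (median -0.03). NFYA, a subunit of NF-Y, was higher (0.40, edgeR adjusted p = 1.2e-05), and SP1, a GC box factor (-0.24, adjusted p = 0.00226), and MBTPS2, the second protease that cuts SREBP (-0.25, adjusted p = 0.00313), were lower. SREBF2, the cholesterol branch paralog of SREBF1, added for that reason after its values were seen, did not pass (-0.07, edgeR adjusted p = 0.348). Among regulators of the carboxylases 2 of 11 tested genes were higher and 4 lower (median -0.09). PRKAB2, a subunit of the AMP-activated kinase that inhibits both carboxylases (0.80, edgeR adjusted p = 4.22e-07), and HLCS, which attaches their biotin (0.43, adjusted p = 2.25e-05), were higher, and BRCA1, which binds phosphorylated ACACA, was lower (-0.33, adjusted p = 0.000411). Subunits of the kinase did not move together. PRKAA2 averaged 7.98 CPM in TGFβ and 13.0 CPM in vehicle libraries, and PRKAG2 28.4 and 39.5 CPM.

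Among citrate and NADPH suppliers 2 of 12 were higher and 3 lower (median -0.02). TKT of the pentose phosphate pathway was higher (0.42, edgeR adjusted p = 0.000743), and pyruvate carboxylase, PC (fold 0.499, adjusted p = 2.48e-07), and the cytosolic NADPH source IDH1 (-0.27, adjusted p = 0.00273) were lower. Of the acetate and acyl-CoA synthetases 5 of 12 were higher and 3 lower (median -0.07). ACSS1, the mitochondrial counterpart of ACSS2, stood at 2.37, 2.64 and 1.76 CPM in TGFβ libraries, against 28.3, 30.7 and 24.0 CPM in vehicle libraries (-3.61, SE 0.18, edgeR adjusted p = 2.81e-10). SLC27A4, a fatty acid transporter (0.60, adjusted p = 9.96e-07 in edgeR), was higher, and ACSL1, which activates long-chain fatty acids (-0.72, adjusted p = 8.13e-06), was lower.

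Of the desaturases and elongases 4 of 12 were higher and 2 lower (median 0.22), with SCD (1.14, edgeR adjusted p = 3.38e-07) and FADS3 (0.65, adjusted p = 2.64e-06) higher and ELOVL6, which extends palmitate to stearate, lower (-0.77, adjusted p = 1.37e-06). Of the other glycerolipid genes 4 of 16 tested were higher and 6 lower (20 in the list, median -0.08). GPAT3, an endoplasmic reticulum counterpart of GPAM, was lower at 0.568 ± 0.0754 CPM in TGFβ and 3.206 ± 0.4995 CPM in vehicle libraries (SD, n = 3 each; -2.49, edgeR adjusted p = 5.9e-06), LPIN2, a paralog of LPIN1, was lower (-0.53, adjusted p = 0.000272), and so was the lipase PNPLA2 (-0.71, adjusted p = 1.27e-07). None of these lists moved in 1 direction, and the share called in each can be read against the 37% of all tested genes.

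With Aramchol present, in libraries not shared with those comparisons, all 21 pathway genes named for TGFβ against vehicle were called in the same direction. These were picked for the smallest p in the first comparison; of all 7978 genes called there 71.4% were called in the same direction with Aramchol present, which is 87.4% of the 6514 called in that comparison. The 21 had log2 fold changes that included -2.47 for ACSS1, -2.50 for GPAT3, -1.02 for PC and 0.58 for SCD.

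Aramchol alone called 1 gene of the 7 lists, whose tested numbers are given above, where 0.357% of all tested genes were called. This gene, TXNIP, stood at 307, 303 and 299 CPM in Aramchol libraries, against 360.02, 369 and 463 CPM in vehicle libraries (-0.39, SE 0.078, edgeR adjusted p = 0.0485). Aramchol on top of TGFβ called 2 genes of these lists, where 2.25% of all tested genes were called. MLXIP stood at 203, 224 and 213 CPM in TGFβ + Aramchol libraries, against 263, 268 and 250.1 CPM in TGFβ libraries (-0.29, SE 0.054, edgeR adjusted p = 0.0147). MID1IP1, which promotes polymerisation and activity of ACACA, stood at 29.9, 29.3 and 30.5 CPM in TGFβ + Aramchol libraries, against 23.7, 24.8 and 25.3 CPM in TGFβ libraries (0.28, SE 0.063, edgeR adjusted p = 0.0324). In each of these 3 genes the groups did not overlap. Of all tested genes 16% had no overlap in Aramchol against vehicle and 23.6% in TGFβ + Aramchol against TGFβ.

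**Figure D4:**
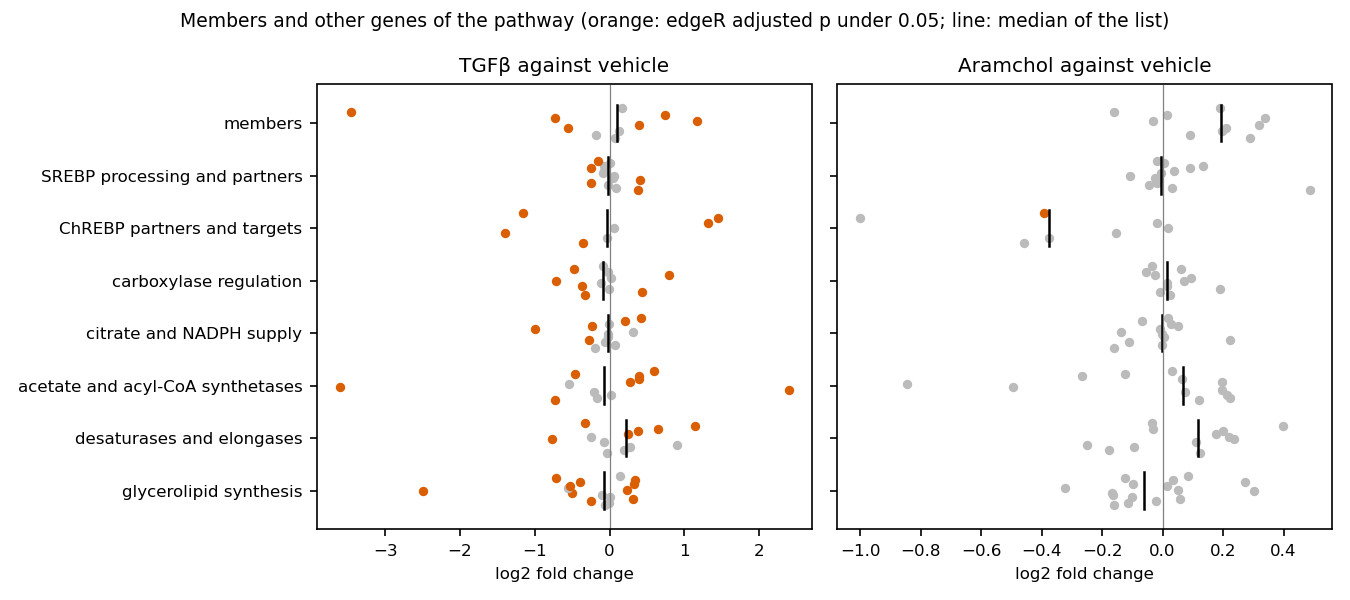
Log2 fold changes (horizontal axes, differing in scale) of the 10 members and of the tested genes of the 7 pathway lists (rows), for TGFβ against vehicle and Aramchol against vehicle; each point is a gene, orange points passed an adjusted p of 0.05 and black lines are medians. Orange points fall on both sides of 0 in every row on the left, and 1 point, TXNIP, is orange on the right.

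Patterns over the 12 libraries were compared as the root mean square difference of log2 CPM centred on the mean of each gene, over 21550 tested genes with a symbol. The gene most like SREBF1 was another member, ACLY (0.0576), followed by the sterol enzyme NSDHL (0.0741) and the mitochondrial ribosome gene MRPS15 (0.0809). SREBF1 itself ranged over only 0.57 on the log2 scale. Vehicle replicate 3 was the lowest of the 12 libraries for both SREBF1 and ACLY (-25.8% and -15.8% against the mean of the other 2 vehicle libraries). How far their likeness rests on this library was not tested. The genes most like MLXIPL, which ranged over 3.83, were CNTFR (0.231), NRG2 (0.268) and ACSS1 (0.273). CNTFR had few counts, averaging 0.145, 0.149, 1.34 and 1.65 CPM in TGFβ + Aramchol, TGFβ, Aramchol and vehicle libraries. At such levels the prior count of 2 weighs more on log2 CPM. NRG2 averaged 0.961, 0.873, 11.4 and 12.4 CPM in the same order of groups. Among the members themselves the closest pairs after SREBF1 and ACLY were ACACA with ACLY (0.0841), SREBF1 with ACACA (0.117) and ACSS2 with LPIN1 (0.119), and MLXIPL was at least 1.26 from each of the others.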

How the data were processed

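Total RNA of 12 libraries of H69 cells, extracted with Trizol and made into libraries with an IDT kit per the labels' protocols, was sequenced by the authors. The submitters' processing notes name STAR 2.7.9a, the build GRCh38, featureCounts of Subread, and DESeq2. The deposited values are counts, whole reads per gene and library; no source used here states the strand setting or the annotation release. The labels name no molecular identifiers.

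Genes were filtered with filterByExpr (21567 of 62703 kept; 20616 had no count), scaled by TMM and fitted with edgeR 4.0.16 (R 4.3.3), quasi-likelihood, 1 mean per group, all 12 libraries in the fit (biological coefficient of variation 8.90%). P-values were adjusted by Benjamini-Hochberg over all tested genes, and a call is an adjusted p under 0.05. A 95% interval is the log2 fold change with its standard error, |log2 fold change| over the square root of F. CPM are TMM-scaled; likeness used log2 CPM with a prior count of 2. The script was tested on simulated counts. Libraries of equal number deviated from their group means with correlations of 0.00739 to 0.221. The labels name no pairs, so the main fit held no term for the number, and such a term was an alternative. Named genes are all 10 members, the 3 called genes of smallest p per list and comparison, and the 3 genes most like each regulator. SREBF2, PRKAA2, PRKAG2, MLX, SLC2A5 and 4 genes in the closing section (LPIN3, GPAT4, PLIN2, INSIG1) were added after their values were seen. The members and lists were chosen with earlier results of these data known. Alternatives were other scalings (RLE, upper quartile), filters, DESeq2 1.42.0, a term for replicate numbers or for number 3, libraries 1 and 2 alone, 2 groups alone, and each library left out. No gene list test was run. One cholangiocyte marker is not reported here.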

Additional observations from a re-analysis of the deposited data

How the results depend on the processing

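The 10 members gave 50 results over 5 comparisons, each under up to 21 alternatives. Of the 11 called results 10 kept their direction and call under every alternative run; the exception was FASN for TGFβ against vehicle, whose values are given above. The count of called members was 5 to 7 for TGFβ against vehicle and 5 or 6 for TGFβ + Aramchol against Aramchol. Called members in Aramchol against vehicle numbered 3 with no filter (FASN, ACACA and LPIN1, all higher) and 2 (ACACA and LPIN1) with DESeq2, with the replicate block and with a term for number 3. In that order, these fits called 531 of 42087, 399 of 21567, 464 of 21567 and 538 of 21567 genes. In TGFβ + Aramchol against TGFβ called members numbered 3 with no filter (MLXIPL and LPIN1 higher, GPAM lower), among 1278 of 42087 genes. With libraries numbered 1 and 2 alone 3 were called (LPIN1 higher, ME1 and GPAM lower), among 1853 of 21762 genes. GPAM alone was called with the replicate block (1519 of 21567 genes), a term for number 3 (1683 of 21567) or the 2 groups alone (960 of 20149). For the interaction called members numbered 2 with no filter (MLXIPL and FASN), among 151 of 42087 genes, and 1 (MLXIPL) with libraries 1 and 2 alone, among 191 of 21762. No member count of 0 changed when a single library was left out, and the causes were not tested.

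The replicate block also called ACACB lower in TGFβ + Aramchol against Aramchol (-0.23, edgeR adjusted p = 0.0332) and changed no other member. Of the 12 libraries 9 correlated best with one of their own number, and the lowest of the 18 equal-numbered correlations was 0.00739. Of these pairs 7 exceeded 0.1, and 1 of the 7 lay outside number 3. The labels do not say whether libraries of equal number were made together, and the correlations cannot settle it. The block gave 9090 called genes for TGFβ against vehicle, 464 for Aramchol against vehicle, 1519 for TGFβ + Aramchol against TGFβ, 7695 for TGFβ + Aramchol against Aramchol and 23 for the interaction.

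Called genes over all alternatives ran between 5 and 1544 for Aramchol against vehicle (77 as reported, 611 without vehicle replicate 3), between 55 and 1853 for TGFβ + Aramchol against TGFβ (486, and 1209 without vehicle replicate 3) and between 0 and 191 for the interaction (3). Upper quartile scaling split the calls into 3601 higher and 4553 lower for TGFβ against vehicle, where TMM gave 4070 and 3908, and into 37 and 38 for Aramchol against vehicle, where TMM gave 51 and 26.

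All 31 reversals, in 14 results, were of values that were not called, with sizes of at most 0.088. For TGFβ + Aramchol against TGFβ, ACLY was -0.0053 with RLE and with DESeq2, -0.0099 with upper quartile, -0.0079 with no filter and -0.013 to 0.015 with 1 library left out, FASN was 0.0087 with libraries 1 and 2 alone and -0.094 to 0.088 with 1 left out, ACSS2 -0.012 to 0.106 and SREBF1 -0.035 to 0.0023 with 1 left out. For Aramchol against vehicle, ME1 was -0.0089 with upper quartile, -0.066 with libraries 1 and 2 alone and -0.068 to 0.053 with 1 left out, GPAM -0.112 to 0.064 and ACACB -0.0040 to 0.146 with 1 left out. For TGFβ + Aramchol against Aramchol, ACACA was 0.010 with libraries 1 and 2 alone and -0.125 to 0.049 with 1 left out, FASN -0.0047 to 0.165 and SREBF1 -0.068 to 0.00020 with 1 left out. For the interaction with libraries 1 and 2 alone, ACACA was 0.0060, ACSS2 0.0058 and LPIN1 0.051, and ACACB was -0.104 to 0.046 with 1 left out.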

Other observations

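Paralogs of the glycerolipid members, singled out after their values were seen, did not all follow the member they resemble under TGFβ. LPIN3 stood at 40.3, 39.99 and 40.2 CPM in TGFβ libraries, against 34.3, 31.1 and 30.9 CPM in vehicle libraries, and was called higher (log2 fold change 0.32, SE 0.071, edgeR adjusted p = 0.00189), while LPIN1 and LPIN2 were called lower. GPAT4, which like GPAT3 sits in the endoplasmic reticulum, stood at 118, 122 and 115 CPM in TGFβ libraries, against 102, 105 and 97.4 CPM in vehicle libraries (0.23, SE 0.047, edgeR adjusted p = 0.00131). Per kilobase of exon GPAT4 averaged 14.9 CPM in TGFβ and 12.8 CPM in vehicle libraries, above GPAM (6.29 and 2.80 CPM) and GPAT3 (0.157 and 0.885 CPM) in the same groups. Of the 3 lipins LPIN2 had the highest level per kilobase, 14.8 CPM in TGFβ and 21.4 CPM in vehicle libraries. PLIN2, which coats lipid droplets, stood at 39.9, 36.9 and 35.7 CPM in TGFβ libraries, against 54.1, 52.9 and 41.7 CPM in vehicle libraries (-0.40, SE 0.12, edgeR adjusted p = 0.0166). INSIG1, a target of SREBP that retains it in the endoplasmic reticulum, stood at 163, 179 and 201 CPM in TGFβ libraries, against 146, 154 and 119 CPM in vehicle libraries (0.38, SE 0.11, edgeR adjusted p = 0.0153), and vehicle replicate 3 was again the lowest.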
